A study of Arabidopsis thaliana with 3 samples.

Results

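The genes described here are 6 Arabidopsis thaliana genes for protein protection, chromatin and reserve use: LEA4-5 (AT5G06760), LEA18 (AT2G35300), ICL (AT3G21720), COR15A (AT2G42540), COR47 (AT1G20440) and HIS1-3 (AT2G18050). They were found by the gene named in the array annotation, and each had 1 probe set, so that they are 6 of the 13356 genes that a probe set names alone, on an array with 22746 Arabidopsis probe sets. The first 3 are called the seed-phase genes and the other 3 the cold and dehydration genes. They were selected on their signals on these same 3 arrays and on the log2 ratios between them. Every value below is therefore a description, and none was tested. Their transcripts were measured on 3 arrays of biotin-labelled RNA from whole 7-day-old seedlings. The first was the overexpressing line 35S:WRKY6-9, called 35S:WRKY6 below, in which the strong, broadly active 35S promoter drives the transcription factor gene WRKY6. The second was the knockout wrky6-1, and the third was the wild type, for which alone the labels name an ecotype, Columbia. All 3 were grown on MS agar at 22 °C in constant light of 40 µmol per m2 per s after 2 days of cold given to the seeds. No cold or drought treatment of the seedlings is named in the labels. Each genotype is 1 line on 1 array, so no difference has a replicate check, and in whole seedlings fewer cells of a type and less RNA per cell cannot be told apart.

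Late embryogenesis abundant (LEA) proteins are small, hydrophilic and mostly unstructured. They accumulate in the maturing seed and, for many members, again in vegetative tissue short of water, where they are known to protect other proteins and membranes. Isocitrate lyase, the product of ICL, catalyses a step of the glyoxylate cycle, through which a germinating oilseed turns stored fat into sugar. The genes on the cold and dehydration side are known to be induced by low temperature, water deficit and the hormone abscisic acid (ABA). They encode a stroma-targeted chloroplast protein (COR15A), a dehydrin (COR47) and a linker histone variant (HIS1-3). WRKY6 itself is known for roles in senescence, phosphate supply and the ABA response of germinating seeds.

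The deposited values were signals on a linear scale, already scaled by array. Signals under the 30th percentile of all Arabidopsis probe sets, 45.5, were set to that value, the floor, ahead of taking log2 ratios, and a fold against a signal under the floor is written "at least". A probe set passed the filter on low values where the higher array of the pair was at or above 174.6, the 50th percentile of the pooled signals. WRKY6 had a signal of 9245 in 35S:WRKY6, 12.1 in wrky6-1 and 322 in wild type, in the order the labels imply. The median signal was 169 to 182 on the 3 arrays, and 29.8% to 30.3% of probe sets lay under the floor. The 3' to 5' ratio of the actin control, a sign of RNA integrity, was 13.1 in 35S:WRKY6, 9.16 in wrky6-1 and 10.2 in wild type. That of ubiquitin was 2.09, 1.87 and 2.66 on these arrays, and that of GAPDH 1.25, 0.953 and 1.23, so the controls did not order the arrays alike. The leaf markers RCA and LHCB4.2 and the root marker PYK10 had signals of 14104 to 25155 in both lines and of 14213 to 19737 in wild type. The root markers EXPA7 and EXPA18 differed more between the arrays, as given further below. The only measure of precision is how far probe sets of the same gene disagreed. Expressed as an SD per probe set on the log2 scale, it was 0.25 for 35S:WRKY6 over wild type (45 genes), 0.23 for wrky6-1 over wild type (47 genes) and 0.27 for 35S:WRKY6 over wrky6-1 (46 genes). Variation among plants, RNA extractions and hybridisations is not in it.

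Both LEA genes were higher in 35S:WRKY6, and only LEA4-5 was above the floor in the knockout. LEA4-5 had a signal of 432 in 35S:WRKY6 seedlings and 586 in wrky6-1 seedlings, against 85.9 in wild type. Both lines thus lay well above wild type, 5.04-fold (log2 ratio 2.33) in 35S:WRKY6 and 6.83-fold (log2 ratio 2.77) in wrky6-1. The lines themselves were close, with a log2 ratio of -0.44 for 35S:WRKY6 over wrky6-1, which is more than the probe-set SD of 0.27 and short of a 2-fold difference. LEA18, which RefSeq also names LEA4-2 and which belongs to the same group of LEA proteins as LEA4-5, had a signal of 240 in 35S:WRKY6 seedlings and 40.3 in wrky6-1 seedlings, against 6.27 in wild type. The last 2 values were both under the floor and have no order, so LEA18 was above the floor only in 35S:WRKY6. It was at least 5.28-fold higher there than in wild type, and by the same floor at least 5.28-fold higher than in wrky6-1. No ratio of LEA18 can be given for wrky6-1 over wild type, so it was not compared with that of LEA4-5 there.

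**Figure D1:**
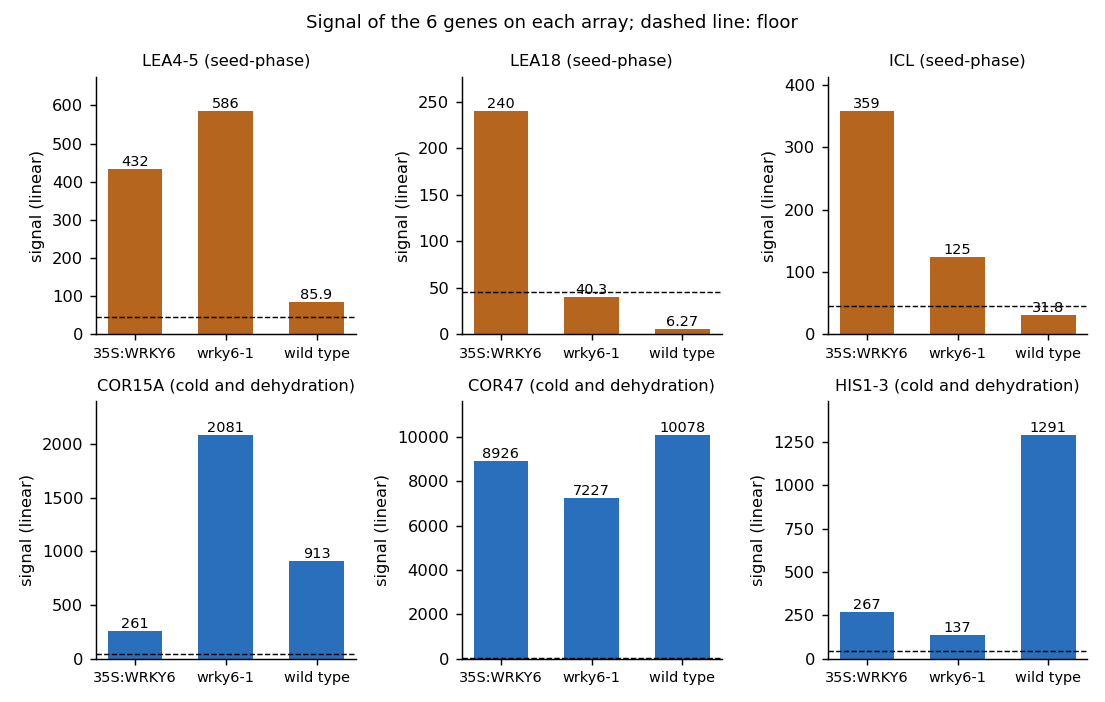
Signal on a linear scale (vertical axes, each starting at 0 and scaled to its own gene) on the 35S:WRKY6, wrky6-1 and wild-type arrays (horizontal axes), 1 array each, with no error bar because there is no replicate. The dashed line is the floor of 45.5. In the upper row LEA4-5 and ICL were lowest in wild type and LEA18 stood above the floor only in 35S:WRKY6. In the lower row COR15A had wild type between the lines, and COR47 and HIS1-3 were highest in wild type.

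ICL had a signal of 359 in 35S:WRKY6 seedlings and 125 in wrky6-1 seedlings, against 31.8 in wild type. The 3 arrays were thus spread out, with only wild type under the floor. Over wild type, ICL was at least 7.89-fold higher in 35S:WRKY6 (log2 ratio 2.98). In wrky6-1 it was at least 2.74-fold higher (log2 ratio 1.45), although its signal there did not reach the filter. Between the lines, with both signals above the floor, ICL was 2.88-fold higher in 35S:WRKY6 (log2 ratio 1.52). Of the 6782 probe sets under the floor in wild type, 88 or 1.3% reached a signal of at least 2 times the floor in 35S:WRKY6, among them ICL and LEA18, and 15 or 0.221% were as high there as LEA18. In wrky6-1, 64 or 0.944% reached that level, among them ICL.

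COR15A was the only one of the 6 genes with wild type between the lines. Its product is imported into the chloroplast, where it is known to stabilise membranes during freezing. COR15A had a signal of 261 in 35S:WRKY6 seedlings and 2081 in wrky6-1 seedlings, against 913 in wild type. Against wild type, it was 3.50-fold lower in the 35S:WRKY6 line (log2 ratio -1.81) and 2.28-fold higher in the wrky6-1 line (log2 ratio 1.19). The lines differed 7.98-fold (log2 ratio -3.00 for 35S:WRKY6 over wrky6-1), a comparison that does not use the wild-type array. All 3 signals were well above the floor. Among the 11856 probe sets that passed the filter in both comparisons with wild type, 14 or 0.118% were at least 2-fold lower in 35S:WRKY6 and at least 2-fold higher in wrky6-1, and COR15A is 1 of these.

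The gene next to COR15A in the genome is its close relative COR15B, which encodes a similar chloroplast protein. COR15B had a signal of 453 in 35S:WRKY6 seedlings and 929 in wrky6-1 seedlings, against 1140 in wild type. It was thus lower than wild type in 35S:WRKY6, like COR15A, with a log2 ratio of -1.33. In wrky6-1 COR15B had a log2 ratio of -0.30 to wild type, and the ratio of COR15A exceeded it by 1.48, against an SD of 0.32 for the difference between 2 probe sets. In 35S:WRKY6 over wild type the gap between the 2 relatives was -0.48, with an SD of 0.36 for such a difference. Both SDs come from probe sets of the same gene and hold no variation among plants, RNA extractions or hybridisations. Whether probes of either set also bind the transcript of the other was not tested.

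COR47, the dehydrin gene also known as RD17, stayed within 2-fold on the 3 arrays. Dehydrins are LEA proteins of another group, named for their build-up in drying tissue. COR47 had a signal of 8926 in 35S:WRKY6 seedlings and 7227 in wrky6-1 seedlings, against 10078 in wild type. The log2 ratio of COR47 was -0.18 in 35S:WRKY6 over wild type, smaller than the probe-set SD of 0.25. In wrky6-1 over wild type it was -0.48, more than the SD of 0.23, and between the lines it was 0.30, near the SD of 0.27. LTI30, another cold-induced dehydrin gene, had 6834 in 35S:WRKY6 seedlings and 8499 in wrky6-1 seedlings, against 4146 in wild type. LTI30 thus lay above wild type in both lines, with log2 ratios of 0.72 and 1.04, while COR47 lay below it. The gap of COR47 to LTI30 was -0.90 in 35S:WRKY6 and -1.52 in wrky6-1. LTI30 was named after its values were seen.

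HIS1-3 had the highest signal of the 3 arrays in wild type. It encodes a linker histone, a protein that binds DNA between nucleosomes. Unlike the main linker histones, it is known to be induced by drought and low light. HIS1-3 had a signal of 267 in 35S:WRKY6 seedlings and 137 in wrky6-1 seedlings, against 1291 in wild type. Relative to wild type, its signal was lower 4.83-fold in 35S:WRKY6 (log2 ratio -2.27) and 9.44-fold in wrky6-1 (log2 ratio -3.24). Between the lines it was 1.96-fold higher in 35S:WRKY6 (log2 ratio 0.97), just short of 2-fold.

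The main linker histone genes did not share a difference of that size. In 35S:WRKY6 they lay close to wild type, and in wrky6-1 they were lower than wild type by less than 2-fold. H1.1 (AT1G06760) had 4233 in 35S:WRKY6 seedlings and 2753 in wrky6-1 seedlings, against 3915 in wild type, with log2 ratios of 0.11 and -0.51. H1.2 (AT2G30620) had 4260 in 35S:WRKY6 seedlings and 3058 in wrky6-1 seedlings, against 4125 in wild type, with log2 ratios of 0.05 and -0.43. The log2 ratio of HIS1-3 minus that of H1.1 was -2.38 in 35S:WRKY6 and -2.73 in wrky6-1, and minus that of H1.2 it was -2.32 and -2.81. Between the lines H1.1 and H1.2 had log2 ratios of 0.62 and 0.48 for 35S:WRKY6 over wrky6-1, in the direction of HIS1-3. The gaps of HIS1-3 there were 0.35 to H1.1 and 0.49 to H1.2, with an SD of 0.38 for the difference between 2 probe sets.

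Set side by side in 35S:WRKY6, the seed-phase genes lay above wild type and COR15A and HIS1-3 below it, with COR47 within the probe-set SD of 0.25 from it. In wrky6-1 the cold and dehydration genes lay on both sides of wild type. In 35S:WRKY6 over wild type the seed-phase genes ran from 2.33 to 2.98 on the log2 scale with a median of 2.40, LEA18 and ICL standing at their lower bounds. The cold and dehydration genes ran from -2.27 to -0.18 with a median of -1.81. The 2 medians were at least 4.21 apart. In wrky6-1 over wild type LEA4-5 was at 2.77 and ICL at a lower bound of 1.45, and LEA18 had no measured ratio. The cold and dehydration genes there ran from -3.24 for HIS1-3 to 1.19 for COR15A with a median of -0.48. Whether the ranges of the classes overlap in wrky6-1 cannot be read, because it turns on LEA18 and on the floor used for ICL. With the floor at the 40th percentile the bound for ICL was 0.37, under the 1.19 of COR15A. Between the lines the seed-phase genes had a median of 1.52 and a range of -0.44 to 2.40, the last a lower bound for LEA18, and the cold and dehydration genes a median of 0.30 and a range of -3.00 to 0.97. The median over all probe sets past the filter was -0.02, -0.01 and -0.01 in these 3 comparisons. As the genes were chosen with these ratios known, the separation in 35S:WRKY6 describes the choice. Both lines were set against the same wild-type array, and any deviation of that array enters both ratios of a gene.

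**Figure D2:**
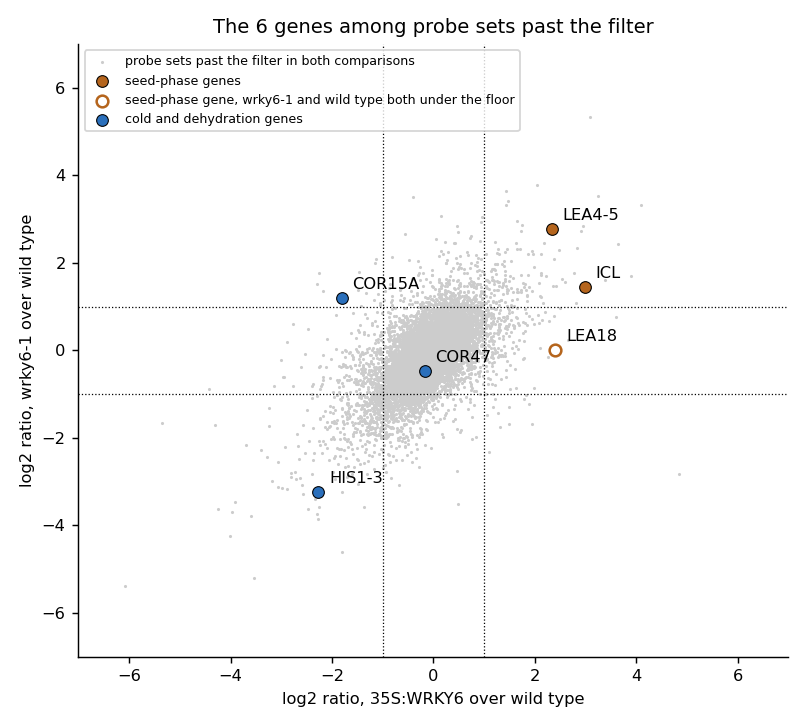
Floored log2 ratio of wrky6-1 over wild type (vertical axis) against that of 35S:WRKY6 over wild type (horizontal axis) for the 6 genes and, in grey, the 11856 probe sets past the filter in both comparisons; dotted lines mark 2-fold. Both axes share the wild-type array, so the slope of the grey cloud is partly built in. The 3 seed-phase genes lie to the right, COR15A at the upper left, HIS1-3 at the lower left and COR47 inside the cloud.

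By order of signal the 6 genes fell into 4 patterns. LEA4-5 was highest in wrky6-1 and lowest in wild type. LEA18 and ICL were highest in 35S:WRKY6, with wild type lowest for ICL and no order between the other arrays for LEA18. COR15A was highest in wrky6-1 and lowest in 35S:WRKY6. COR47 and HIS1-3 were highest in wild type and lowest in wrky6-1, though the wild-type and 35S:WRKY6 signals of COR47 did not differ by more than the probe-set SD.

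In 35S:WRKY6 over wild type all 6 genes passed the filter. Of them 3 were at least 2-fold higher, against 3.79% of the 12139 probe sets past it, and 2 were at least 2-fold lower, against 5.61%. LEA4-5, LEA18 and ICL passed only through their signal in 35S:WRKY6, so the filter fixed their direction. In wrky6-1 over wild type 4 genes passed. LEA4-5 and COR15A were at least 2-fold higher, against 5.16% of 12222 probe sets, and HIS1-3 was at least 2-fold lower, against 7.77%. LEA4-5 passed there only through its signal in wrky6-1 and HIS1-3 only through its signal in wild type, so the filter fixed the direction of both. In 35S:WRKY6 over wrky6-1 all 6 passed, with LEA18 and ICL at least 2-fold higher, against 4.52% of 12000, and COR15A at least 2-fold lower, against 4.65%. LEA18, ICL and HIS1-3 passed there only through 35S:WRKY6, so the filter fixed the direction of all 3. Since these ratios were known when the genes were picked, nothing is read from the counts.

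The wider lists show how far related genes shared these differences. They were drawn up with earlier results of these data known, and most of their genes had no named probe set. A named probe set is one for which the annotation names that gene alone, so a gene without one may still be on the array. Among 30 genes for seed maturation and LEA proteins, 6 had a named probe set. LEA4-1, the remaining gene of the group that holds LEA4-5 and LEA18, had 89.6 in 35S:WRKY6 seedlings and 21.7 in wrky6-1 seedlings, against 56.5 in wild type, and did not pass the filter. The oleosin gene OLEO4 (AT3G01570), whose product coats seed oil bodies, had 82.2 in 35S:WRKY6, while its signals of 43.3 in wrky6-1 and 14.1 in wild type were under the floor. OLEO4 did not pass the filter in any comparison. M10, a seed maturation gene, had 123 in 35S:WRKY6 seedlings and 9.46 in wrky6-1 seedlings, against 183 in wild type. M10 thus went against LEA4-5, at least 4.02-fold lower in wrky6-1 than in wild type. M17 was under the floor on all 3 arrays. Of the 3 genes of the list that passed in 35S:WRKY6 over wild type, LEA4-5 and LEA18 were at least 2-fold higher and M10 was not.

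In RefSeq 11 genes carry the words late embryogenesis abundant, and 5 had a named probe set. Besides LEA4-5, LEA18 and LEA4-1 these were 2 genes outside that list, looked up after the values of the 6 genes were seen. AT2G46140 had 650 in 35S:WRKY6 seedlings and 416 in wrky6-1 seedlings, against 398 in wild type. AT2G44060 had 5532 in 35S:WRKY6 seedlings and 4102 in wrky6-1 seedlings, against 3437 in wild type. Their log2 ratios were 0.71 and 0.69 in 35S:WRKY6 over wild type and 0.06 and 0.26 in wrky6-1 over wild type. The values in 35S:WRKY6 exceeded the probe-set SD of 0.25, and all 4 were short of 2-fold.

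Of 21 genes for fat mobilisation and the glyoxylate cycle, 3 had a named probe set, and ICL was the only one of these above wild type. SDP1, the lipase that opens the breakdown of seed oil, had 542 in 35S:WRKY6 seedlings and 435 in wrky6-1 seedlings, against 797 in wild type, with log2 ratios of -0.55 and -0.87. AIM1, an enzyme of peroxisomal fatty acid oxidation, had 2051 in 35S:WRKY6 seedlings and 2206 in wrky6-1 seedlings, against 2510 in wild type, with log2 ratios of -0.29 and -0.19. The log2 ratio of ICL lay at least 3.53 above that of SDP1 in 35S:WRKY6 and at least 2.33 above it in wrky6-1.

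**Figure D3:**
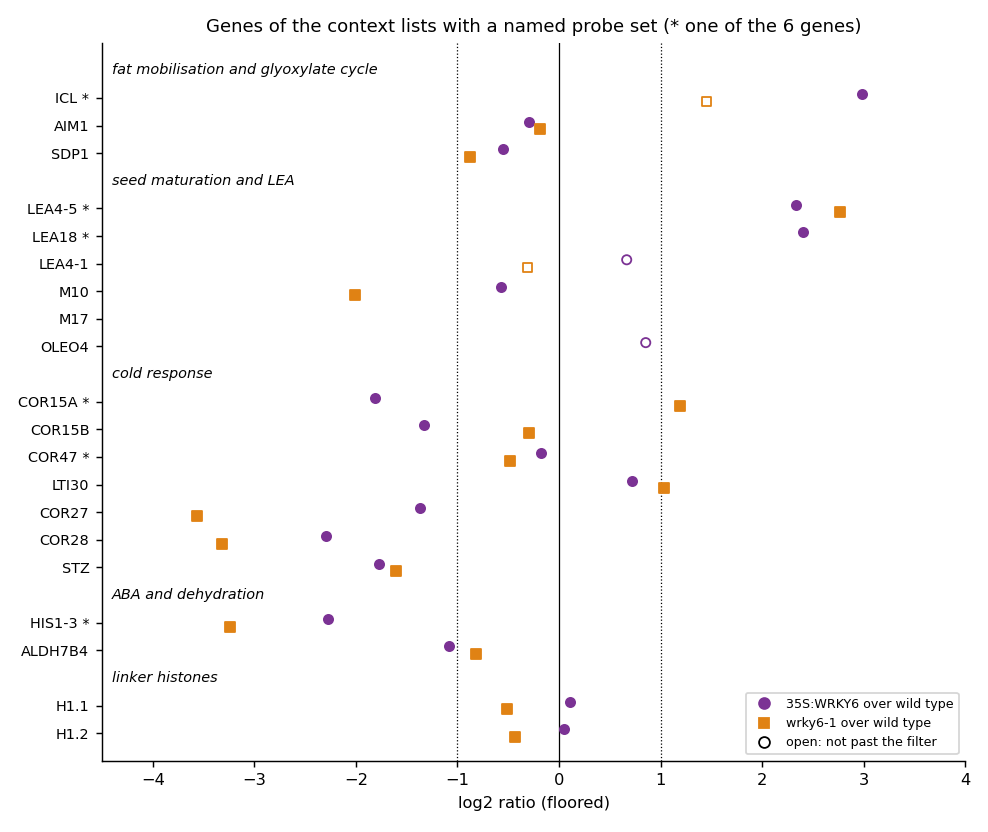
Floored log2 ratio to wild type (horizontal axis) in 35S:WRKY6 (circles) and wrky6-1 (squares) for the genes of 5 lists that had a named probe set (vertical axis); open symbols did not pass the filter, ratios with both signals under the floor are not drawn, and dotted lines mark 2-fold. The symbols of LEA4-5, LEA18 and ICL lie far to the right of most others of their lists, and COR15A is the only gene of the cold list with its symbols beyond 2-fold on both sides of 0.

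Of 22 cold-response genes, 7 had a named probe set and all 7 passed the filter in both comparisons with wild type. In 35S:WRKY6, 5 were at least 2-fold lower, against 5.61% of all probe sets past the filter, and 0 were 2-fold higher, against 3.79%. The median of the 7 log2 ratios was -1.37, against -0.02 for all probe sets past the filter. In wrky6-1, 3 were at least 2-fold lower, against 7.77%, and 2, COR15A and LTI30, at least 2-fold higher, against 5.16%, with a median of -0.48, the value of COR47. COR15A and COR47, chosen on these ratios, are among the 7. Of the 5 others, 4 were at least 2-fold lower in 35S:WRKY6 and 0 higher. For wrky6-1, 3 of these 5 were lower and 1 higher. COR27, a cold-induced gene also tied to the clock, had 294 in 35S:WRKY6 seedlings and 64.2 in wrky6-1 seedlings, against 761 in wild type. COR28 (AT4G33980), its relative, had 92.9 in 35S:WRKY6 seedlings and 38.0 in wrky6-1 seedlings, against 455 in wild type. Both thus had the order of arrays seen for HIS1-3, with log2 ratios to wild type of -1.37 and -2.29 in 35S:WRKY6 and of -3.57 and, as a bound, -3.32 in wrky6-1. STZ, a zinc finger repressor gene named after its values were seen, was at -1.78 in 35S:WRKY6 and at -1.60 in wrky6-1 on the same scale.

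Of 25 ABA and dehydration genes only HIS1-3 and ALDH7B4 had a named probe set. ALDH7B4, a stress-induced aldehyde dehydrogenase gene, had 3038 in 35S:WRKY6 seedlings and 3655 in wrky6-1 seedlings, against 6449 in wild type. Against wild type it was lower 2.12-fold in 35S:WRKY6 and 1.76-fold in wrky6-1, a smaller difference than that of HIS1-3 in both lines. Among the root markers, EXPA7 and EXPA18 had log2 ratios of 0.92 and 0.77 in 35S:WRKY6 over wild type, and their part in the values of the 6 genes was not tested.

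The 6 genes have 12 immediate neighbours in the TAIR10.1 gene order, of which 4 had a named probe set. COR15B was the only one at least 2-fold from wild type in either line. AT5G06770, beside LEA4-5, had log2 ratios to wild type of 0.16 and 0.22 in 35S:WRKY6 and wrky6-1. AT1G20430, beside COR47, had a log2 ratio of -0.26 in wrky6-1, and AT2G35310, beside LEA18, was under the floor on all 3 arrays.

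The named genes most like each of the 6 were taken by the distance between their pairs of floored log2 ratios to wild type, among 1004 other probe sets past the filter that name a gene with a symbol. The measure uses 3 arrays only, and a small distance is a description. For LEA4-5 no other gene lay within 0.5, and the nearest were HOS3-1 at 0.66 and the sugar transporter gene SWEET4 at 0.68. LEA18 was placed by a lower bound and by a ratio set to 0 by the floor, so its neighbours, the cell wall enzyme gene XTH20 at 0.21 and the β-glucosidase gene BGLU19 at 0.44, are near those values and may not be near its true ratios. XTH20 had every signal above the floor, at 999.9 in 35S:WRKY6 seedlings and 187 in wrky6-1 seedlings, against 209 in wild type. BGLU19 had 41.1 in wrky6-1 seedlings, under the floor. ICL was placed by 2 lower bounds, and the gene nearest to them was the ubiquitin ligase gene PUB19 at 0.43, followed by the response regulator gene RR16 at 0.72.

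On the cold and dehydration side, COR15A had 2 genes within 0.5, ECS1 at 0.37 and the methionine sulfoxide reductase gene MSRB6 at 0.41. ECS1 had 1959 in 35S:WRKY6 seedlings and 14374 in wrky6-1 seedlings, against 5517 in wild type, the same order as COR15A. HIS1-3 had 3 genes within 0.5, the nearest being MCCA, of leucine breakdown, at 0.36, and FHL, of phytochrome A import into the nucleus, at 0.43. FHL had 38.5 in wrky6-1 seedlings, under the floor, so its distance rests on a bound. MCCA had 494 in 35S:WRKY6 seedlings and 355 in wrky6-1 seedlings, against 2980 in wild type. COR47 had 292 probe sets within 0.5, the nearest being SP1L3 and SLOMO, both at 0.021, so its pattern was a common one on these arrays.

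**Figure D4:**
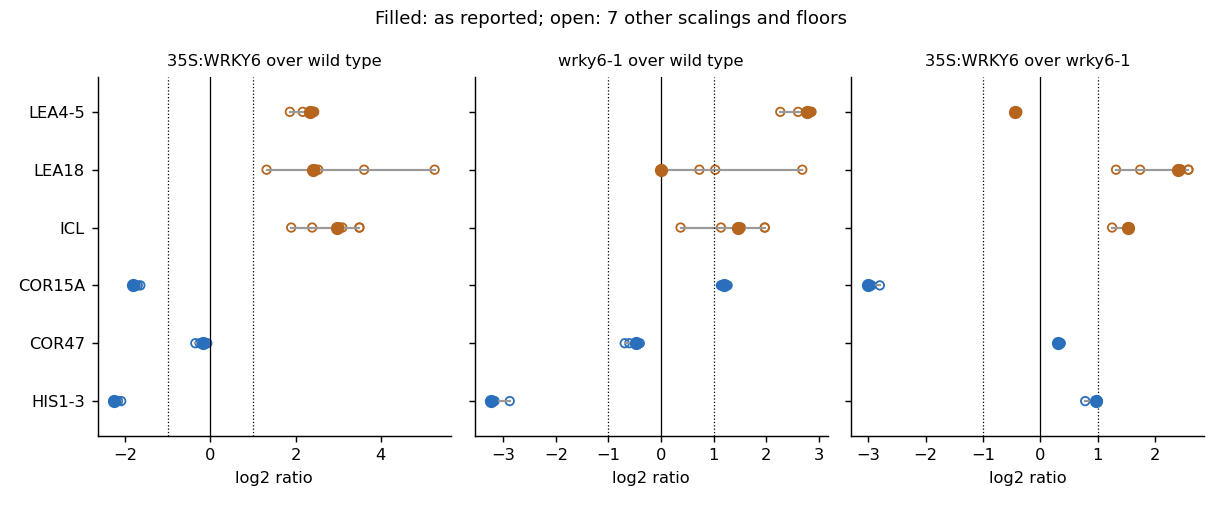
Log2 ratio (horizontal axes) of each of the 6 genes (vertical axis) in the 3 comparisons, as reported (filled) and under 7 other scalings and floors (open); dotted lines mark 2-fold. The 35S:WRKY6 ratio of LEA18 to wild type runs from 1.32 to 5.26 and that of ICL from 1.90 to 3.50, while the ratio of COR15A stays between -1.81 and -1.65.

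The reported sizes of LEA18 and ICL depend on the floor, as their wild-type signals lay under it. Over 7 other scalings and floors LEA18 in 35S:WRKY6 over wild type had log2 ratios of 1.32 to 5.26, and ICL of 1.90 to 3.50. In wrky6-1 over wild type ICL ranged from 0.37 to 1.97, and only the highest floor took it under 2-fold. COR15A ranged from -1.81 to -1.65 in 35S:WRKY6 and from 1.14 to 1.26 in wrky6-1, and HIS1-3 from -2.27 to -2.09 and from -3.24 to -2.87. COR47 kept a negative ratio to wild type in both lines, between -0.69 and -0.07.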

How the data were processed

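RNA from whole seedlings was measured on 3 arrays, 1 per genotype, grouped by the genotype labels. The deposited values are linear signal intensity values, 1 per probe set and array. Per the submitters' processing notes the tools were GCOS 1.0 and MAS5, with no role stated. The 2% trimmed means were 499.8 to 500.1, so the authors had scaled the arrays, and no further scaling was applied. Of 22810 probe sets, 64 controls were left out. The annotation named 1 gene for 13513, of which 13436 matched RefSeq TAIR10.1, several genes for 503, and 8730 were not listed. The build behind the array is not given in the sources used here, so no coordinates are printed.

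Log2 ratios were taken after raising values to the floor, and a log2 ratio of 1 in size (2-fold) was counted. No test was possible with 1 array per group. The number of arrays limits the precision. The ratio code was tested on simulated data made from the wild-type array. Known changes were put only on probe sets with a high wild-type signal, so ratios set by the floor were not covered. Python 3.11.15, numpy 2.4.6, pandas 2.3.3 and statsmodels 0.14.6 were used. Genes and lists were chosen with earlier results of these data known. Named were the 6 genes, WRKY6, the 3 list genes past the filter with the largest ratio to wild type, and the 2 nearest genes by pattern. Other list genes and adjacent genes were named after their values were seen. Alternatives were 3 scalings, 4 floors and 3 filters. Sequences were not used here.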

Additional observations from a re-analysis of the deposited data

Results flagged for a closer look

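COR15A lay on opposite sides of wild type in the 2 lines, at least 2-fold in each, with signals of 261 in 35S:WRKY6 seedlings and 2081 in wrky6-1 seedlings, against 913 in wild type. The log2 ratio of 35S:WRKY6 over wrky6-1 was -3.00. With 1 array per genotype the difference was not tested.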

How the results depend on the processing

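Scaling by quantiles or medians moved no ratio of the 6 genes or class median by more than the probe-set SD, and neither did lowess. The floor mattered for signals near it. In 35S:WRKY6 over wild type, with the floor at the 20th percentile, at the 40th and with no floor, LEA18 was at 3.61, 1.32 and 5.26, ICL at 3.50, 1.90 and 3.50, and the seed-phase median at 3.50, 1.90 and 3.50. In wrky6-1 over wild type ICL was at 1.97, 0.37 and 1.97 and the seed-phase median, 1.45 with LEA18 set to 0 by the floor, at 1.97, 0.37 and 2.68, while LEA18 was at 1.03 and 2.68 with the lower floor and none. LEA18 over wrky6-1 was at 1.32 with the higher floor. Adding a floor-sized constant gave in 35S:WRKY6 over wild type 2.39 for ICL and 1.86 for LEA4-5, and in wrky6-1 over wild type 2.27 for LEA4-5, 1.14 for ICL and for the seed-phase median, 0.73 for LEA18 and -2.87 for HIS1-3. Between the lines it gave 1.25 for ICL and for the seed-phase median and 1.74 for LEA18. The moves with another floor follow from the construction of the floor, and those with the constant from adding it to every signal. With the filter at the 70th percentile 0 of the 6 genes were counted as 2-fold higher for 35S:WRKY6 over wild type and 0 over wrky6-1, because the seed-phase signals are too low for it, and with the filter on the mean 1 and 0. Over all probe sets the stricter filter left 283 higher and 414 lower in 35S:WRKY6 than in wild type, and 334 higher and 326 lower than in wrky6-1. The median of the seed maturation list in wrky6-1 over wild type, 0.38 from 2 genes, ran from -0.75 with no floor to 2.77 with 1 gene left. No paired analysis was possible because each genotype has 1 array.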
